A study of Mus musculus with 6 samples.

Results

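The Argonaute and microRNA processing genes are 10 genes whose products make, load and use microRNAs: Ago1, Ago2, Ago3, Ago4, Dicer1, Drosha, Dgcr8, Tnrc6a, Tnrc6b and Tnrc6c. They were taken by gene symbol from a table of 47086 loci, with the locus of highest mean level where a symbol had several loci. Of the 10 genes, 9 had a mean of at least 1 FPKM in either genotype and were among the 13195 loci tested. Dgcr8 was listed at 0 in all libraries. FPKM is the fragment number of a transcript relative to its length and to the mapped total of a library, so that levels of different genes can be set side by side.

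RNA-seq was done on total RNA from primary hippocampal cultures of C57BL/6 mice after 14 days in vitro, with 3 wild type (WT) and 3 Fmr1 KO libraries. Fmr1 encodes FMRP, an RNA-binding protein whose loss leads to fragile X syndrome, and the labels name no treatment. The cultures came from newborn pups, and the sources used here give neither the sex of these pups nor the litter of a library nor the C57BL/6 substrain. The labels do not say that the 3 libraries of a genotype came from separate cultures, so p-values measure the spread between these libraries, which may be technical.

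In the nucleus, Drosha and Dgcr8 form the Microprocessor, which cuts the hairpin out of a primary microRNA transcript. Dicer1 then cuts the exported hairpin to a short duplex, and 1 strand is loaded into an Argonaute protein. The Argonaute binds Tnrc6 proteins (GW182 family), which recruit deadenylases and silence the target mRNA. In neurons the pathway acts on local translation at synapses, and FMRP is known to associate with Argonaute proteins.

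The loci of 2 members also carry microRNAs, so their transcripts are both part of the machinery and its substrate. The mature sequences at these loci are shown for that reason, from RefSeq (GRCm38.p6), with the seed (bases 2 to 8, which pair with targets) in capitals. Mir1306 and Gm24572, the gene of miR-3618, lie within the Dgcr8 locus, and Mir5113 lies within the Tnrc6b locus.
mmu-miR-1306-5p: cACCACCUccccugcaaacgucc
mmu-miR-1306-3p: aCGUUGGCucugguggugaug
mmu-miR-3618-5p: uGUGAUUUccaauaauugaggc
mmu-miR-3618-3p: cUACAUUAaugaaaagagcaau
mmu-miR-5113: aCAGAGGAggagagagauccugu
The 5 seeds differ from each other. The deposited table gave Mir5113 the same value as Tnrc6b, because both symbols name 1 locus, and levels of the mature microRNAs were not measured.

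Ago1, Ago3 and Ago4 are neighbours on chromosome 4 and all lie on the minus strand. In the deposited coordinates 5337 bases separate Ago3 from Ago1, and 20831 bases separate Ago1 from Ago4. Their upstream windows are shown because the 3 neighbours differed in level and in how they varied across libraries, as described later. Each window holds the 250 bases before the RefSeq start (GRCm38.p6), and capitals mark the CCAAT box (CCAAT or ATTGG) and the GC box (GGGCGG or CCGCCC), searched on both strands.
Ago1 upstream window, chr4:126468632-126468881, minus strand: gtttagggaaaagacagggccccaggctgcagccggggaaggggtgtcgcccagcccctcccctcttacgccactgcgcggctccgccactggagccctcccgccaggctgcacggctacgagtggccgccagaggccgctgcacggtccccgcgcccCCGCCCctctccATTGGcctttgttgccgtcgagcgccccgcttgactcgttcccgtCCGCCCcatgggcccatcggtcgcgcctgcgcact
Ago3 upstream window, chr4:126429543-126429792, minus strand: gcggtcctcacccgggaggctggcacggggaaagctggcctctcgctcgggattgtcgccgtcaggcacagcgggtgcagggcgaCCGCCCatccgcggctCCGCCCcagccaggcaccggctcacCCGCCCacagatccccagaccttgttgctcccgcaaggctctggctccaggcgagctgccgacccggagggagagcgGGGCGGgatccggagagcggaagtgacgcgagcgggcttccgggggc
Ago4 upstream window, chr4:126533459-126533708, minus strand: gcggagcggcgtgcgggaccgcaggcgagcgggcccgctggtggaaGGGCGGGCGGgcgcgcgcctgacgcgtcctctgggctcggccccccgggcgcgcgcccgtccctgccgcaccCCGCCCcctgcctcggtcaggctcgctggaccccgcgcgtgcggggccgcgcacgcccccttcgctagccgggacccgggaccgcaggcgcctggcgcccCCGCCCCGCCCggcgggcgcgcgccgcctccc
A CCAAT box was found in the Ago1 window and in neither of the others, and the Ago1, Ago3 and Ago4 windows held 2, 4 and 5 GC boxes, overlapping matches included. The promoter table had 9 of the 10 members, all but Ago2, and no window of these held a TATA box (TATAAA) or an E-box (CACGTG). The CCAAT box was in 5 of these 9 windows and the GC box in 6, compared with 34.46% and 32.94% of all 27025 promoter windows of the same length. Each window lies at the first listed start of its gene, and Ago1 and Tnrc6b each had 2 listed starts. The windows of the members held 9 to 46 CpG dinucleotides, with the most in Ago4, compared with a median of 6 in all windows. The window with 9 is that of Tnrc6a, at chr7:123123635-123123884, which lies inside the Tnrc6a locus and not at its edge. The Dicer1 window, at chr12:104751953-104752202, also lies inside its locus, but near the edge. The box matches describe letters in the windows and not binding.

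Across the series, the FPKM of all loci summed to 1803679 to 2303083 per library, with 73.7 to 80.6% of each sum at the noncoding RNA Bc1. The number of reads is not given by FPKM, so depth is unknown and the spread between libraries sets the precision. Fmr1 itself was at 19.0, 19.5 and 19.7 FPKM in WT, and at 23.1, 21.8 and 18.5 FPKM in the libraries labelled Fmr1 KO. Its transcript level therefore does not check the labels, and Fmr1 KO stands here for the libraries so labelled. All 12 neuron markers passed the minimum level, with summed levels of 1940 to 2006 FPKM in WT and 1998 to 2072 FPKM in Fmr1 KO. Marker sums of the 2 genotypes did not overlap for microglia (5.45 to 7.95 FPKM in WT, 1.37 to 2.47 in Fmr1 KO, 4 of 9 markers tested, Tmem119 and Aif1 at 0), endothelial cells (1.41 to 1.66 and 0.617 to 1.17, 0 of 5 tested, Cldn5 at 0), fibroblast and mural cells (47.4 to 52.0 and 38.6 to 46.8, 4 of 6 tested, none at 0) or proliferation (33.2 to 39.0 and 39.4 to 44.4, 6 of 6 tested, none at 0). They overlapped for astrocytes, with all 7 markers tested, and for the oligodendrocyte lineage, with 5 of 7 tested. A listed 0 can be a failed estimate, as described later for Dgcr8, and Aif1 and Cldn5 had 4 and 2 loci. The markers at 0 are therefore not read as absent cell types. The part of these cell types in the values of the members was not tested. In bulk RNA, fewer cells of a type and less RNA per cell cannot be told apart.

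None of the 9 members tested passed the genotype comparison. In limma on log2(FPKM + 0.1), with Benjamini-Hochberg adjustment over all 13195 loci, 0 of 9 members had an adjusted p below 0.05, and 35 of all loci did (0.265%), with 0.0909% of loci higher and 0.174% lower in Fmr1 KO. Before adjustment, 0 of 9 members had a p below 0.05, compared with 1947 of all loci (14.8%). No overlap between genotypes was seen for 3 of 9 members (33.3%), compared with 21.1% of all loci. Drosha and Tnrc6a were higher in each Fmr1 KO library, as were 10.8% of loci, and Ago4 was lower in each, as were 10.3%. The log2 changes (Fmr1 KO minus WT) of the members ranged from -0.17 for Ago4 to 0.20 for Ago2, with 7 above 0, 2 below 0 and a median of 0.06, beside a median of 0.005 over all loci.

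**Figure D1:**
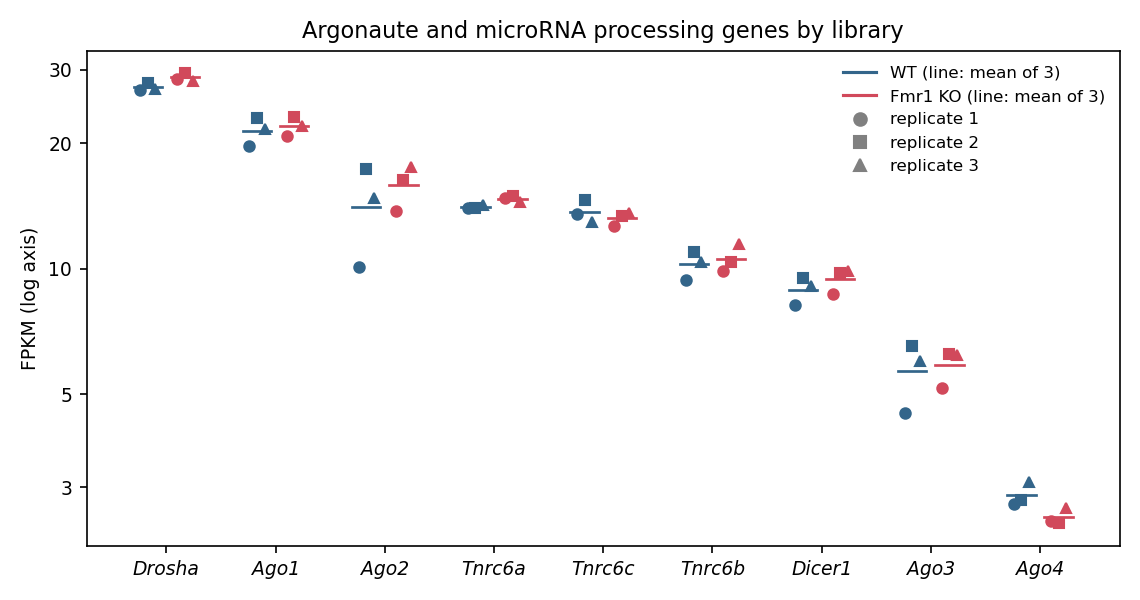
FPKM of the 9 members with a level above 0 in each library, on a log axis, with WT in blue and Fmr1 KO in red. Marker shapes give the replicate number and the short lines are the means of 3 libraries. Drosha, Tnrc6a and Ago4 have libraries that do not overlap between genotypes, and WT replicate 1 is the low point of Ago2 and Ago3.

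By level, the members spanned the range from a common to a sparse transcript. Drosha was highest at a mean of 28.0 FPKM over the 6 libraries, at the percentile of 79.8 among the loci tested, and Ago4 was lowest at 2.70 FPKM, at the percentile of 16.2. Between them stood Ago1 at 21.7 FPKM, Ago2 at 15.0, Tnrc6a at 14.4, Tnrc6c at 13.5, Tnrc6b at 10.4, Dicer1 at 9.19 and Ago3 at 5.79. Ago2, Tnrc6a and Tnrc6c could not be placed in a stable order, since Ago2 was above Tnrc6a in 4 of 6 libraries and Tnrc6a above Tnrc6c in 5 of 6. Tnrc6b exceeded Dicer1 within each of the 6 libraries, by a ratio of 1.06 to 1.16, although their ranges over libraries overlapped. Every other neighbouring pair in this order kept it in 6 of 6 libraries with ranges that did not overlap.

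Drosha, the nuclear RNase III enzyme, lies on the plus strand at chr15:12824804-12935291 (XLOC_034575, longest transcript 4570 bases in 35 exons). Its FPKM was 26.8, 27.9 and 26.9 in WT, against 28.5, 29.4 and 28.2 in Fmr1 KO. Every Fmr1 KO library was above every WT library, and the means were 27.2 ± 0.612 in WT, compared with 28.7 ± 0.603 in Fmr1 KO (SD, n = 3). The difference was small, with a log2 change of 0.08 (standard error 0.05, limma adjusted p = 0.49), or 5.52% with a 95% interval of -2.08 to 13.7%.

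Dgcr8, the RNA-binding partner of Drosha, was listed at 0 FPKM in all 6 libraries at each of its 3 loci, of which 1 is on chromosome 16 (chr16:18248858-18289255, minus strand, XLOC_036882) and 2 are on scaffolds outside the chromosomes. A listed 0 can be a failed estimate, and other transcripts of this region were listed in the same way. Of the 10 nearest protein-coding neighbours of Dgcr8 on chromosome 16, 8 were also listed at 0 in all libraries, Ranbp1 among them, and all 10 had a scaffold copy. Over the whole table, 597 of 984 protein-coding symbols placed both on a chromosome and on a scaffold were listed at 0 in all libraries (60.67%), compared with 3937 of 20132 placed on a chromosome only (19.56%). No level, fold or ratio is therefore given for Dgcr8, nor for miR-1306 and miR-3618 at its locus.

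Dicer1, the cytoplasmic RNase III enzyme, lies on the minus strand at chr12:104687737-104752324 (XLOC_030414, longest transcript 9851 bases in 27 exons). It had 8.18, 9.50 and 9.08 FPKM in WT and 8.70, 9.77 and 9.90 FPKM in Fmr1 KO. WT replicate 1 and Fmr1 KO replicate 1 were the lowest libraries and the genotypes overlapped. The log2 change was 0.08 (standard error 0.08, limma adjusted p = 0.676), with a 95% interval of -6.64 to 20.3% around a difference of 5.99%. It was 0.02 without WT replicate 1. Relative to Drosha within each library, Dicer1 stood at a mean log2 ratio of -1.61 ± 0.09 in WT, compared with -1.60 ± 0.10 in Fmr1 KO (SD, n = 3, p = 0.9 in a two-sided exact permutation test, where 0.1 is the smallest p possible). On the FPKM scale, Drosha was above Dicer1 in 6 of 6 libraries.

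Among the 4 Argonautes, Ago2 is the one that can itself cut a fully paired target, and it varied most between libraries. It lies on the minus strand at chr15:73101625-73184947 (XLOC_035577, longest transcript 13800 bases in 19 exons). Its FPKM was 10.1, 17.4 and 14.8 in WT, against 13.8, 16.4 and 17.5 in Fmr1 KO, a range of 1.73-fold over the 6 libraries. WT replicate 1 was the lowest and the genotypes overlapped, with means of 14.1 ± 3.69 and 15.9 ± 1.91 (SD, n = 3). The log2 change of 0.20 (standard error 0.18, limma adjusted p = 0.651) had a 95% interval of -13.3 to 52.3%, the widest of the members. Without WT replicate 1 it was -0.02.

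Ago1, the most abundant Argonaute transcript here, lies on the minus strand at chr4:126435012-126468709 (XLOC_010451, longest transcript 7227 bases in 19 exons). It had 19.7, 23.0 and 21.6 FPKM in WT and 20.8, 23.1 and 22.0 FPKM in Fmr1 KO. The genotypes overlapped, and the log2 change was 0.04 (standard error 0.07, limma adjusted p = 0.849), with a 95% interval of -8.00 to 14.6%. Without WT replicate 1 it was -0.02. Ago3 (chr4:126326989-126429674, XLOC_010450, longest transcript 15595 bases in 19 exons) had 4.52, 6.54 and 6.02 FPKM in WT and 5.18, 6.24 and 6.21 FPKM in Fmr1 KO. Its libraries overlapped too, with a log2 change of 0.06 (standard error 0.14, limma adjusted p = 0.897) that was -0.10 without WT replicate 1.

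Ago4, the Argonaute with the lowest level, was the one member below WT in every Fmr1 KO library. It lies on the minus strand at chr4:126489541-126533585 (XLOC_010452, longest transcript 6537 bases in 18 exons). Its FPKM was 2.73, 2.79 and 3.09 in WT, against 2.48, 2.46 and 2.67 in Fmr1 KO. The gap between the highest Fmr1 KO library and the lowest WT library was narrow, and the means were 2.87 ± 0.194 and 2.54 ± 0.116 (SD, n = 3). The log2 change of -0.17 (standard error 0.10, limma adjusted p = 0.483) had a 95% interval of -24.4 to 4.44%. Leaving out any 1 library gave -0.21 to -0.12.

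**Figure D2:**
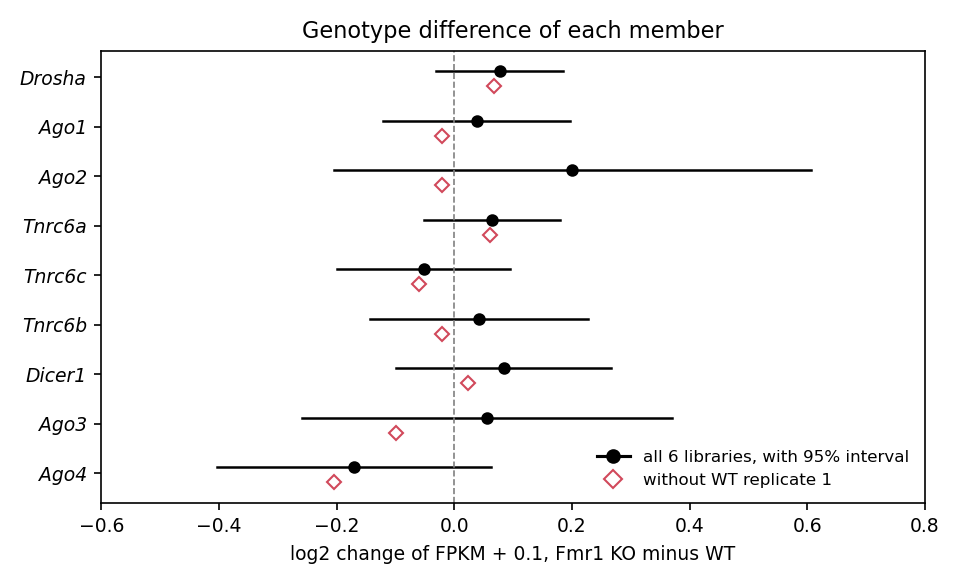
Log2 change of FPKM + 0.1 (Fmr1 KO minus WT) for the 9 members tested. Black points and lines are limma estimates from 6 libraries with their 95% intervals, which all cross 0, and open diamonds are estimates without WT replicate 1. Ago1, Ago2, Ago3 and Tnrc6b have diamonds below 0 and points above it.

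Within each library, the makeup of the Argonaute family can be given as a share of its summed FPKM, which does not depend on the scaling of the library. A trend with transcript length within a library does not cancel in such a share. WT replicate 1 had such a trend, as described later, and its part in the shares was not tested. Ago1 made up a mean of 48.3% of the sum over the 6 libraries, Ago2 32.9%, Ago3 12.8% and Ago4 6.05%. The order Ago1, Ago2, Ago3, Ago4 held in 6 of 6 libraries. The Ago2 share was 27.2, 34.9 and 32.5% in WT, against 32.6, 34.0 and 36.1% in Fmr1 KO, and the Ago4 share was 7.37, 5.62 and 6.80% in WT, against 5.88, 5.11 and 5.52% in Fmr1 KO. The shares overlapped between genotypes for all 4 genes. Two-sided exact permutation tests of the 6 values gave p = 0.7 for Ago1, 0.4 for Ago2, 0.6 for Ago3 and 0.2 for Ago4. The log2 ratio of Ago2 to Ago1 was -0.64 ± 0.29 in WT, compared with -0.48 ± 0.13 in Fmr1 KO (SD, n = 3, exact permutation p = 0.5). That difference of 0.16 was 0.00065 without WT replicate 1 and 0.28 without WT replicate 2, and the difference in the Ago2 share, 2.68 percentage points, was 0.520 and 4.38.

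The Tnrc6 proteins are the scaffolds that link Argonaute to deadenylation. Tnrc6a (chr7:123031101-123195296, plus strand, XLOC_017275, longest transcript 8183 bases in 24 exons) had 14.0, 14.0 and 14.2 FPKM in WT and 14.8, 14.9 and 14.4 FPKM in Fmr1 KO. Its range over the 6 libraries was 1.07-fold, the narrowest of the members, and every Fmr1 KO library was above every WT library. The log2 change was 0.06 (standard error 0.05, limma adjusted p = 0.604), or 4.58% with a 95% interval of -3.46 to 13.3%. With the transcript length trend removed it was 0.012.

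Tnrc6b and Tnrc6c had overlapping genotypes. For Tnrc6b (chr15:80711313-80941086, plus strand, XLOC_034966, longest transcript 17332 bases in 25 exons) the FPKM was 9.38, 10.98 and 10.4 in WT, against 9.86, 10.4 and 11.4 in Fmr1 KO. Its log2 change was 0.04 (standard error 0.08, limma adjusted p = 0.863), with a 95% interval of -9.49 to 17.05%, and it was -0.02 without WT replicate 1 and also without Fmr1 KO replicate 3. Mir5113 at this locus shares the value and was not measured apart from it. For Tnrc6c (chr11:117654125-117763439, plus strand, XLOC_027309, longest transcript 11590 bases in 21 exons) it was 13.6, 14.6 and 12.9 in WT, against 12.7, 13.4 and 13.6 in Fmr1 KO. The log2 change of Tnrc6c was -0.05 (standard error 0.06, limma adjusted p = 0.758), with a 95% interval of -12.9 to 6.77%, and it was -0.0049 without WT replicate 2.

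The 3 Tnrc6 genes contributed more evenly to their sum than the Argonautes did. Tnrc6a made up a mean of 37.6% of the summed Tnrc6 FPKM, Tnrc6c 35.2% and Tnrc6b 27.2%, and Tnrc6b had the smallest share in 6 of 6 libraries. The shares overlapped between genotypes, with exact permutation p = 0.4 for Tnrc6a, 0.2 for Tnrc6c and 0.6 for Tnrc6b. The summed Tnrc6 FPKM was 36.9 to 39.6 and the summed Argonaute FPKM 37.0 to 49.7 over the 6 libraries, so both sums were nearly equal in WT replicate 1 and the Argonaute sum was the larger one elsewhere.

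**Figure D3:**
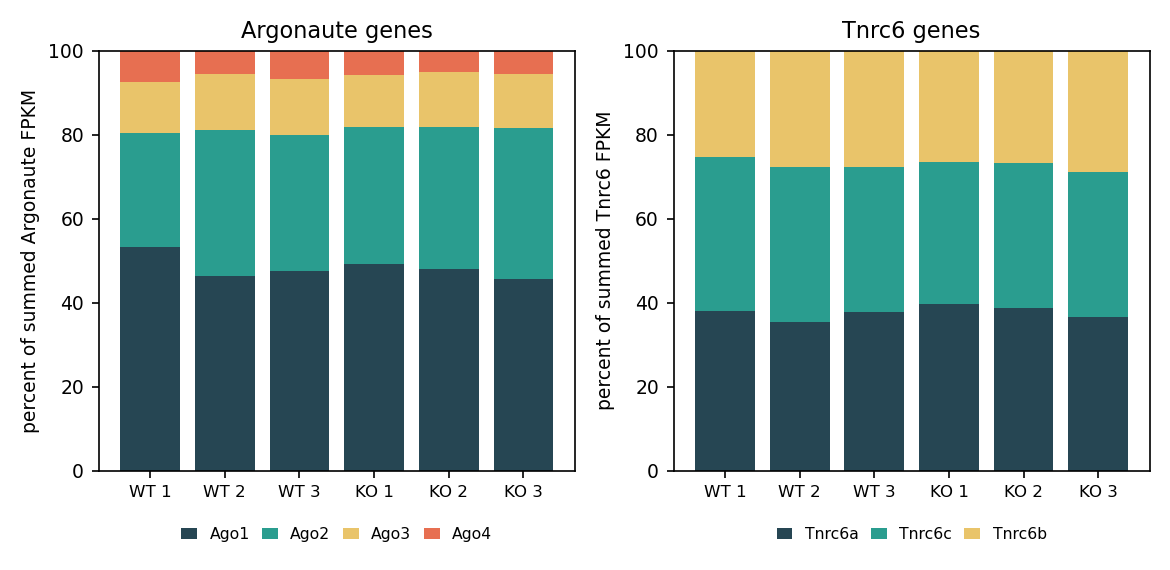
Share of each gene in the summed FPKM of the 4 Argonaute genes (left) and of the 3 Tnrc6 genes (right), in percent, for each WT and Fmr1 KO library. Ago1 and Ago2 hold most of the Argonaute sum in all libraries, with the highest Ago1 share, 53.2%, in WT replicate 1.

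Across the 6 libraries, the members differed in which library was low. WT replicate 1 was the lowest library for 7 of 9 members, all but Ago4 and Tnrc6c. For Ago1, Ago2, Ago3, Dicer1 and Tnrc6b, Fmr1 KO replicate 1 was the next lowest. Ago4 did not follow its neighbours Ago1 and Ago3, with its highest level in WT replicate 3 and its lowest in Fmr1 KO replicate 2.

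WT replicate 1 was also the lowest library for 24.4% of all loci tested and for 54.6% of the loci in the longest of 4 equal classes of transcript length, that of at least 4859 bases. In that library the median log2 deviation from the mean of the 6 libraries went from 0.09 in the class of shortest transcripts to -0.09 in the class of longest. Of the 9 members, 8 are in the longest class, and Drosha is in the next one. The deviation of WT replicate 1 was -0.54 for Ago2, below which lay 0.529% of the loci in its class, and -0.34 for Ago3, below which lay 3.86%. For Ago1, Dicer1 and Tnrc6b it was -0.14, -0.16 and -0.15. Tnrc6a, Tnrc6c and Ago4, at -0.04, 0.01 and 0.02, were above the median of the class. Whether transcript length has a part in the values of the members was not tested beyond these measurements and a fit with the length trend removed. In that fit, chosen after seeing the data, 0 of 9 members were called, compared with 44 higher and 57 lower calls among all 12847 loci fitted. The log2 change was 0.13 for Ago2, -0.21 for Ago4 and 0.07 for Drosha. It was nearer to 0 for Tnrc6a at 0.012 (limma adjusted p = 0.95) and for Dicer1 at 0.023, and farther from 0 for Tnrc6c at -0.12. Ago1, Ago3 and Tnrc6b were at -0.0084, -0.017 and -0.033.

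**Figure D4:**
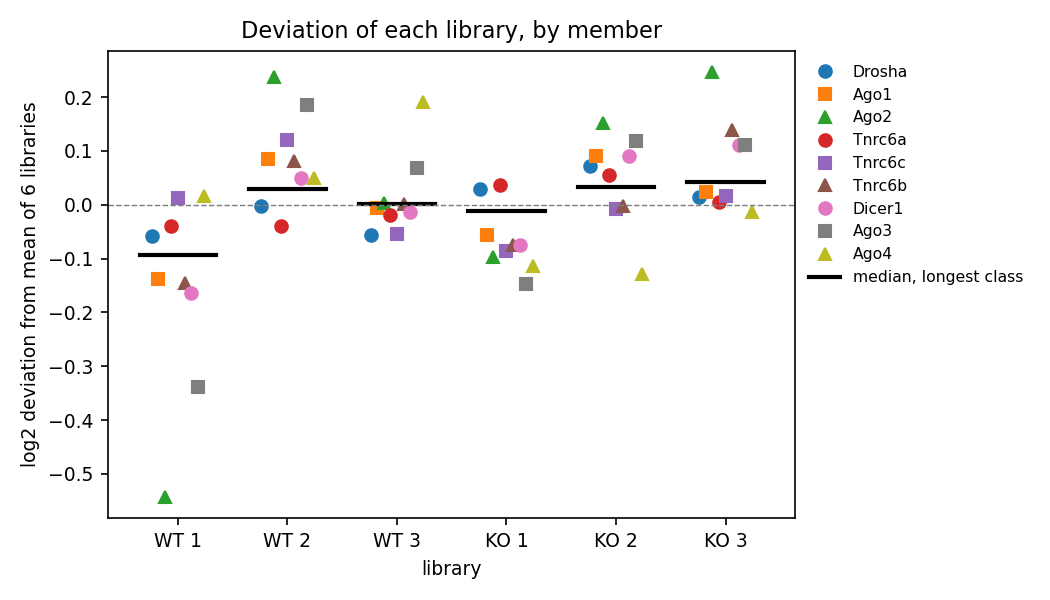
Log2 deviation of each library from the mean of the 6 libraries, for the 9 members (coloured points). The black lines are the medians of all loci in the class with the longest transcripts, -0.09 in WT replicate 1. Ago2 and Ago3 lie farthest below that line in WT replicate 1, at -0.54 and -0.34, and Ago4 is highest in WT replicate 3.

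The wider silencing machinery was described with 8 lists of 116 genes in all, of which 98 were tested. Of these 98, 0 had an adjusted p below 0.05 in limma, an unadjusted p below 0.05 was reached by 10 genes that were higher and 3 that were lower, and 25.5% had libraries that did not overlap. Their median log2 change was 0.02. The most abundant gene of a list is the one with the highest mean FPKM over the 6 libraries. Over all loci the same unadjusted level was reached by 6.99% that were higher and 7.77% that were lower. An adjusted p below 0.05 in limma was reached by 0.265% of all loci, and 21.1% had libraries that did not overlap.

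Partners in processing and export (12 of 12 tested) had 2 genes higher and 0 lower at this unadjusted level, with a median log2 change of 0.04. Tarbp2, a double-stranded RNA-binding partner of Dicer1, had the highest change of all 98 genes. Its FPKM was 2.75, 2.39 and 2.53 in WT, against 3.15, 3.69 and 3.19 in Fmr1 KO, without overlap, and its log2 change was 0.37 (standard error 0.11, limma adjusted p = 0.187). Prkra, the other partner of this kind, had the lowest change of the list at -0.05 (limma adjusted p = 0.798), with 15.8, 13.9 and 14.7 FPKM in WT and 15.3, 13.2 and 14.3 FPKM in Fmr1 KO. Ddx17, an RNA helicase of the Microprocessor, was the most abundant of the list, at 164 to 182 FPKM in WT and 178 to 193 in Fmr1 KO, with a log2 change of 0.09. The other gene at an unadjusted p below 0.05 was Srrt, a cofactor of the nuclear cap-binding complex, with a log2 change of 0.18 (limma adjusted p = 0.192), which was named after its value was seen.

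The chaperones that open Argonaute for loading (11 of 12 tested) had 0 genes higher and 1 lower at this unadjusted level, with a median of -0.04. That gene was Cdc37, a co-chaperone of Hsp90, with 34.3, 31.1 and 31.4 FPKM in WT and 29.0, 27.8 and 29.8 FPKM in Fmr1 KO. Its libraries did not overlap and its log2 change was -0.16 (standard error 0.06, limma adjusted p = 0.256). Hsp90ab1, an Hsp90 itself and the most abundant of the list at 544 to 590 FPKM, had a log2 change of -0.0077, and the co-chaperone Ptges3 had the highest change of the list at 0.04. Hsp90ab1 was at 0.02 without WT replicate 1 and Ptges3 at -0.01 without Fmr1 KO replicate 1.

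Argonaute partners and regulators (15 of 19 tested, Fmr1 among them) had 1 gene higher and 0 lower at this unadjusted level, with a median of 0.0042. Zswim8, the receptor of a ubiquitin ligase that acts in target-directed microRNA decay, had 22.4, 23.6 and 23.3 FPKM in WT and 25.7, 25.6 and 25.2 FPKM in Fmr1 KO, without overlap. Its log2 change was 0.14 (standard error 0.05, limma adjusted p = 0.239). Tsnax, a subunit of the nuclease C3PO, was at -0.10 and Caprin1, an RNA-granule protein, was the most abundant of the list at 79.1 to 87.0 FPKM with a log2 change of 0.06.

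Deadenylation genes (20 of 20 tested) had 3 genes higher and 1 lower at this unadjusted level, with a median of 0.03. Pabpc1, the cytoplasmic poly(A)-binding protein to which Tnrc6 proteins bind, had 150, 150 and 148 FPKM in WT and 167, 165 and 163 FPKM in Fmr1 KO. The 3 libraries of each genotype lay close together and did not overlap with the other genotype, and the log2 change was 0.14 (standard error 0.04, limma adjusted p = 0.171). Pan2, a catalytic deadenylase, had 6.42, 6.41 and 7.02 FPKM in WT and 7.11, 8.06 and 7.70 FPKM in Fmr1 KO, with a log2 change of 0.20 (limma adjusted p = 0.271). Btg1, a cofactor of the Ccr4-Not deadenylase, had 7.09, 6.59 and 6.23 FPKM in WT and 5.79, 5.68 and 5.48 FPKM in Fmr1 KO, with a log2 change of -0.23 (limma adjusted p = 0.223). Libraries did not overlap between genotypes for Pan2 and Btg1 either.

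Decapping, translational repression and decay genes (16 of 16 tested) had 2 genes higher and 0 lower at this unadjusted level, with a median of 0.06 and 43.8% of genes without overlap, compared with 21.1% of all loci. Gigyf1, which acts with an eIF4E homologue in translational repression, had 8.65, 9.48 and 9.06 FPKM in WT and 9.86, 11.4 and 11.5 FPKM in Fmr1 KO. All Fmr1 KO libraries were above WT, with a log2 change of 0.26 (standard error 0.08, limma adjusted p = 0.188). Eif4enif1, the eIF4E transporter, had the lowest change of the list at -0.10, and Lsm14b, an RNA-binding protein of silencing granules, had the highest mean level at 32.1 FPKM, with a log2 change of 0.08. Ddx6, named after its values were seen, was close at 31.8 FPKM and was above Lsm14b in WT replicates 2 and 3.

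Genes of microRNA tailing and turnover (8 of 10 tested) had 0 of either direction at an unadjusted p below 0.05, with a median of -0.0046. The extremes were the exonucleases Xrn2 at 0.11 and Dis3l2 at -0.11, and Qk, an RNA-binding protein, was the most abundant at 156 to 174 FPKM. Of the 5 germline Piwi genes, 0 reached the minimum level.

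**Figure D5:**
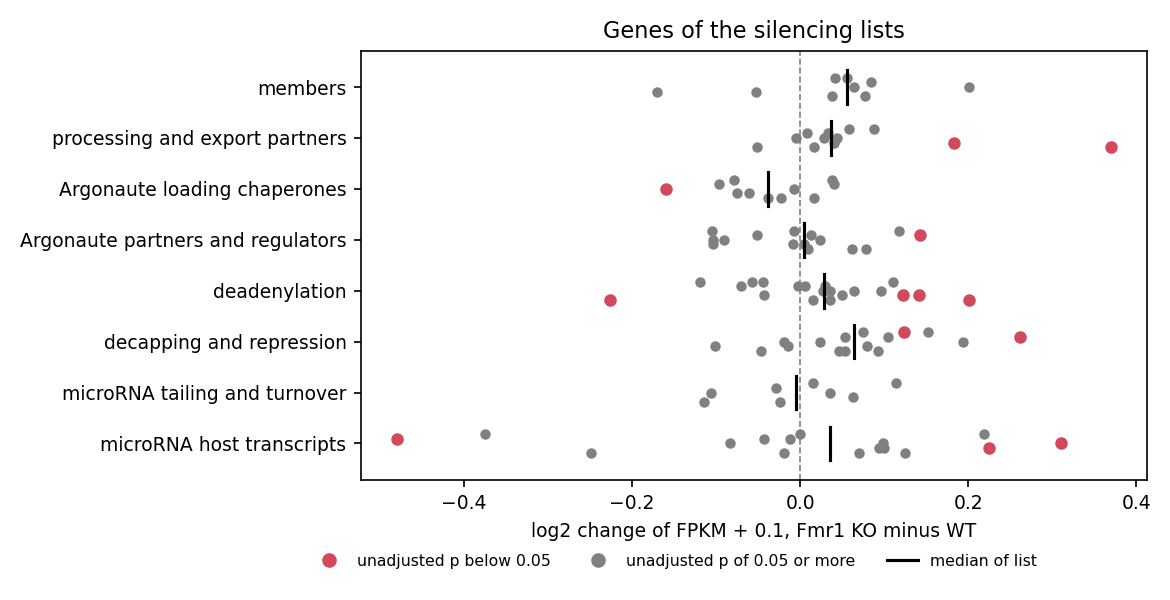
Log2 change of FPKM + 0.1 (Fmr1 KO minus WT) of each tested gene in the members and the 7 silencing lists with a gene tested. Red points have an unadjusted p below 0.05 in limma and black lines are list medians, which lie between -0.04 and 0.06. The points farthest from 0 are Grm8 at -0.48 and Tarbp2 at 0.37.

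Transcripts that host microRNAs are the substrates of Drosha and Dgcr8. Of 22 such transcripts 16 were tested, with 2 higher and 1 lower at this unadjusted level and a median log2 change of 0.04. Mcm7, a subunit of the replicative helicase, and Grm8, a metabotropic glutamate receptor, were the extremes, and Arpp21 was the most abundant. For each microRNA gene in these hosts 1 mature arm is shown, from RefSeq (GRCm38.p6) with the seed in capitals, as a map from the host values to the products. The first 3 are from Mcm7, the next from Grm8 and the last from Arpp21, although RefSeq gives the same mature miR-128-3p also for a gene in R3hdm1.
mmu-miR-93-5p: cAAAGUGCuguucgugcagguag
mmu-miR-106b-5p: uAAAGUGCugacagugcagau
mmu-miR-25-3p: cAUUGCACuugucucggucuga
mmu-miR-592-5p: aUUGUGUCaauaugcgaugaugu
mmu-miR-128-3p: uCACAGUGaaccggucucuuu
Within the Mcm7 host, miR-93-5p and miR-106b-5p share the seed AAAGUGC and miR-25-3p has another. The mature microRNAs themselves were not measured, and a host level is not a microRNA level.

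The host Mcm7 had 5.68, 5.22 and 5.75 FPKM in WT and 7.39, 6.46 and 6.89 FPKM in Fmr1 KO, without overlap. Its log2 change was 0.31 (standard error 0.08, limma adjusted p = 0.143), and the part in it of the proliferation markers, whose sums did not overlap either, was not tested. Grm8 had 1.62, 1.78 and 1.46 FPKM in WT and 1.37, 1.11 and 0.948 FPKM in Fmr1 KO, with a log2 change of -0.48 (standard error 0.18, limma adjusted p = 0.271). All Fmr1 KO libraries of Grm8 were below WT. In the paper, Mcm7 and Grm8 are among the differentially expressed genes, which were taken from Cuffdiff at a p below 0.05. Arpp21 had 61.1, 58.2 and 55.8 FPKM in WT and 67.9, 59.2 and 57.2 FPKM in Fmr1 KO, with overlap and a log2 change of 0.07. The remaining gene at an unadjusted p below 0.05, named after its value was seen, was Mir124a-1hg, a host of the neuronal microRNA miR-124, with a log2 change of 0.22 (limma adjusted p = 0.21).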

How the data were processed

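Total RNA of primary hippocampal cultures was sequenced in 3 WT and 3 Fmr1 KO libraries. According to the methods, the authors trimmed the reads, used TopHat2 for mapping to GRCm38 and Cufflinks for gene building, and compared genotypes with Cuffdiff. The sources used here do not give versions, annotation, library scaling or whether strand was used. Whether reads of overlapping genes were told apart is therefore unknown. The authors deposited FPKM per library, FPKM per group, and log2 fold changes, p-values and q-values of their comparison. Only the FPKM per library was used. Coordinates are those of the deposited table, with starts moved by 1 base to count from 1, and transcript lengths and exons come from the GENCODE annotation.

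FPKM are not counts, so log2(FPKM + 0.1) was fitted with limma 3.58.1 in R 4.3.3, with a mean-variance trend and genotype alone as a term, and p-values were adjusted (Benjamini-Hochberg) over the 13195 loci with a mean of at least 1 FPKM in either genotype. The fit was tested on simulated data. A fold on this scale understates the change of low genes. Shares and ratios were compared with two-sided exact permutation tests (Python 3.11.15, numpy 2.4.6). The alternatives were other pseudocounts and minimum levels, centring, no trend, removal of length trends, a replicate block and each library left out.

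Members and lists were chosen with earlier results of these data known. All members and Fmr1 are named, and of each silencing list the gene with the highest change, the lowest change and the highest level, and any gene at an adjusted p below 0.05. Cell type lists are given as counts and sums, with markers at 0.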

Additional observations from a re-analysis of the deposited data

How the results depend on the processing

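No member and no gene of the silencing lists was called under any alternative run, and the members' smallest adjusted p in limma was 0.312, with the replicate block. Without the mean-variance trend 1 of 9 members, Ago4, had an unadjusted p below 0.05 (limma adjusted p = 0.345). In that run 862 higher and 984 lower loci of 13195 reached the same unadjusted level. Over all loci, the 12 higher and 23 lower calls became 6 and 9 without a minimum level, 7 and 14 without the trend, and 44 and 57 with the transcript length trend removed, an alternative chosen after seeing the data. The higher calls became 20 with a minimum of 5 FPKM and 19 with the locus span trend removed. With each library left out there were 4 to 8 higher and 10 to 14 lower calls, with 1 genotype then at 2 libraries. The cause of these shifts was not tested.

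With the replicate number as a block there were 29 higher and 36 lower calls. Same-numbered libraries correlated at 0.243, 0.0577 and 0.0801 in their deviations from the genotype means. A replicate 1 and a library of another number in the other genotype correlated at -0.152 to -0.119. Replicates 2 and 3 correlated across numbers at 0.0658 and 0.0781, so not every library correlated best with its own number. The labels name no pairing, so the main fit has no block. Whether the numbers mark pairs was not tested beyond these correlations and the block.

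With the length trend removed the log2 change turned to -0.0084 for Ago1, -0.017 for Ago3 and -0.033 for Tnrc6b, and Hsp90ab1 turned to 0.018, or 0.011 with the span trend removed. Leaving out 1 library gave log2 changes of -0.021 to 0.091 for Ago1, -0.020 to 0.37 for Ago2, -0.099 to 0.16 for Ago3, -0.021 to 0.092 for Tnrc6b, -0.10 to 0.0010 for Prkra, -0.012 to 0.11 for Ptges3, -0.033 to 0.025 for Hsp90ab1 and -0.0038 to 0.12 for Arpp21. Without a change of sign it gave 0.023 to 0.14 for Dicer1 and -0.093 to -0.0049 for Tnrc6c. Of the differences between genotypes (Fmr1 KO minus WT), it gave -1.32 to 5.03 FPKM for the Argonaute sum and -0.10 to 1.24 FPKM for the Tnrc6 sum. In percentage points it gave 0.520 to 4.38 for the Ago2 share, -1.58 to -0.708 for the Ago4 share, 0.413 to 2.11 for the Tnrc6a share, -2.75 to 0.712 for the Ago1 share, -0.525 to 0.0218 for the Ago3 share and -0.320 to 0.952 for the Tnrc6b share. On the log2 scale it gave 0.00065 to 0.28 for Ago2 to Ago1, -0.045 to 0.062 for Dicer1 to Drosha and -0.12 to 0.038 for the Tnrc6 sum to the Argonaute sum. The planned ratio of Drosha to Dgcr8 was not run, since Dgcr8 was listed at 0.

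The 3 libraries per genotype, the unknown depth and the use of total RNA limit these values. In the main fit, an interval such as that of Ago2 leaves sizeable differences in either direction within the error. With the replicate block, the 95% interval of the Ago2 log2 change was -0.024 to 0.43 (limma adjusted p = 0.312). Protein and mature microRNA levels were not analysed here.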
